A study of Homo sapiens with 10 samples.

Results

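ZEB1 CUT&RUN counts were examined at the broad binding sites of a breast cancer cell line, defined as the intervals of the consensus peak set that were 1000 bp or longer. There were 455 of them among 52981 consensus sites (0.859% of the sites and 3.70% of the bases), and they covered 566161 bp. The cells were an ER-, PR- and HER2-negative human breast cancer line labelled MDA. Eribulin-treated libraries, labelled MDA_ERI, came from cells given 300 nM eribulin for 24, 48 or 72 h, and control libraries, labelled MDA_Parental, came from untreated cells. The labels do not say whether MDA_ERI means the treated culture alone or a line derived from the parental one, and in the second case line and drug cannot be told apart in any value below. Each of these 4 conditions had 2 ZEB1 libraries, all eribulin times shared the same control libraries, and no culture time is given for the control. A further 2 IgG libraries were not analysed here, so no level without the ZEB1 antibody stands beside the values.

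ZEB1 is a zinc finger transcription factor that binds E-box sequences of the CACCTG type and represses epithelial genes, and it is one of the factors that drive the epithelial to mesenchymal transition. Eribulin is a microtubule inhibitor used in metastatic breast cancer. In CUT&RUN an antibody brings a nuclease to the protein on chromatin, and the released DNA is sequenced, so that counts over a site reflect how often it was cut out. A long interval arises where signal stays above background over more than 1 nucleosome, as at clustered binding sites, wide promoters or repeated sequence. In a population of cells, fewer bound cells and less signal per cell cannot be told apart.

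Consensus counts per library lay between 1130706 and 3561455. Over all sites the 2 libraries of each condition differed by no more than sampling noise, with a chi-square per degree of freedom of 0.830 in control and 0.886, 0.928 and 0.951 at 24, 48 and 72 h. Within the broad sites the same statistic was 1.15, 1.05, 0.887 and 0.900. Each condition was therefore counted as 1 sample, and a call compares these libraries, not the conditions. Levels are given as CPM, counts scaled to the size of the library and by TMM factors, which set the middle of the sites to no change. A site was called where edgeR's adjusted p was under 0.05 and the change at least 2-fold, and 95% intervals in parentheses after a log2 fold change cover counting error only.

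The members were selected on interval width, which comes from peaks called on the same libraries, so the values below describe sites chosen by their signal and support nothing about width. The median broad site was 1146 bp wide (quartiles 1062 and 1285.5), against 227 bp for the narrower sites. Of the 455, 63 reached 1500 bp, 17 reached 2000 bp, and the widest spanned 3247 bp. A single peak of 1000 bp or more was listed inside 292 of them in control, 85 after 24 h, 76 after 48 h and 67 after 72 h. For 61 sites such a peak occurred at an eribulin time and not in control, and 102 sites reached their width only by merging shorter peaks. The median broad site held 467 control counts and the median narrower site 69, which is 406 and 305 counts per kb.

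The threshold cuts through a continuous range, with 168 sites of 1000 to 1099 bp and 306 of 900 to 999 bp. Just inside lay the starts of CD2AP, a scaffold of slit diaphragms and adhesion (1000 bp), BMPR1A, a BMP receptor (1001 bp), and CEP57, a centrosomal protein (1003 bp), with log2 fold changes at 48 h of -0.04, 0.52 and -0.11. Just outside lay PLEKHG2 and FLNA, an actin crosslinker (999 bp each), and a site 38 kb from DACT2 (998 bp), with -0.27, 0.38 and 3.71.

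Broad sites lay at gene starts, near chromosome ends and over structured RNA genes more often than narrower sites with the same control count. A protein-coding start lay within 1 kb of the middle of 51.3% of broad sites and 20.1% of narrower ones (starts on chromosome 8 were not used here), and at equal control counts these shares were 54.8% and 28.0%. Within 5 Mb of a chromosome end, measured to the last annotated gene, lay 22.6% of broad and 12.3% of narrower sites, and 23.8% and 11.4% at equal counts. An rRNA, snRNA, snoRNA or tRNA gene overlapped 48 broad sites, which is 10.5% against 0.310% of narrower sites, or 7.06% against 0.927% at equal counts. Another site lay within 2 kb of 29.7% of broad and 29.6% of narrower sites, or of 26.8% and 35.3% at equal counts. Taking each site once in this order, 50 sites were over structured RNA genes or the ribosomal DNA block, 101 near chromosome ends, 164 at coding starts, 67 in gene bodies and 58 intergenic, and the other 15 were on chromosome 8 and not classed.

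Whole promoter windows, from 250 bases before to 50 after the annotated start, lay inside 184 broad sites, and 26 of these held starts of 2 or more genes on both strands. The 257 such windows had a median GC content of 70%, against 67% for the 3266 windows inside narrower sites and 62.3% for all 22198 windows of the table. The ZEB1 E-box, searched as CAGGTG or CACCTG and so on both strands, was present in 26.5% of the windows in broad sites, 21.4% of those in narrower sites and 19.9% of all. The GC box GGGCGG or CCGCCC occurred in 82.5%, 78.6% and 56.3%, and the AP-1 motif TGANTCA, which is its own reverse complement, in 1.95%, 4.16% and 6.15%. Such matches describe letters in a window and do not mark bound sites.

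Promoters inside 4 of the sites described below are printed to show how they differ: each is the 250 bases before the start, 5′ to 3′ on the gene's strand, from RefSeq (GRCh38.p14), with capitals marking CAGGTG or CACCTG. ELF3 (chr1:202010337-202010586, plus strand) has 1 E-box 120 bases before its start and 4 CpG dinucleotides, and TMEM184A (chr7:1556206-1556455, minus strand) has E-boxes 220 and 97 bases before it. CTNNA1 (chr5:138753175-138753424, plus strand) has none, with 80% GC and 33 CpG dinucleotides, and LENG9 (chr19:54463779-54464028, minus strand) has none, with 56.8% GC and a short repeated unit around its GC boxes.
ELF3: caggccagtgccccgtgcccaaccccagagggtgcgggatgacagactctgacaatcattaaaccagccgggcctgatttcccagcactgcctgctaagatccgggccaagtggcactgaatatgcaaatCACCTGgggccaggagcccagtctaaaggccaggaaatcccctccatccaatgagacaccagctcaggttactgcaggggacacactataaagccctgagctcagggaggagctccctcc
TMEM184A: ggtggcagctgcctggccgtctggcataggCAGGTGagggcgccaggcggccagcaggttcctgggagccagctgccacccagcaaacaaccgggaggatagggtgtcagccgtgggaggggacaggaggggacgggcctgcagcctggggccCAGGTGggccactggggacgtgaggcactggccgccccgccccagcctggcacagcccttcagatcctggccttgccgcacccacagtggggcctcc
CTNNA1: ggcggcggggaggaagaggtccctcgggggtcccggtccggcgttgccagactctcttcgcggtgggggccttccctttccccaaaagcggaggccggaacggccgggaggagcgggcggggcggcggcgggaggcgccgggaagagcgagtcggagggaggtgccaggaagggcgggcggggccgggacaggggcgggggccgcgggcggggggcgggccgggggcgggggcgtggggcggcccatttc
LENG9: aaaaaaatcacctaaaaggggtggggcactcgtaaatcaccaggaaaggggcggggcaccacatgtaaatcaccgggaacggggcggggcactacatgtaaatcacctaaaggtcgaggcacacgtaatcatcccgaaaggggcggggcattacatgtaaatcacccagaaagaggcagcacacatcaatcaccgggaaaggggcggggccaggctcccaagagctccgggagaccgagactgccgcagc

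With TMM scaling more broad sites were called lower than higher at 24 h, and more higher than lower at 48 and 72 h. At each time this order depended on the scaling. All 455 entered the test. At 24 h 57 were called lower (12.5%, against 13.5% of all 46436 tested sites) and 41 higher (9.01%, against 14.9%), whereas scaling by library totals gave 46 lower and 53 higher. At 48 h 14 were lower (3.08%, against 7.55%) and 66 higher (14.5%, against 10.5%). By 72 h 8 were lower (1.76%, against 8.55%) and 90 higher (19.8%, against 12.2%). The median log2 fold change of the broad sites was -0.02, 0.14 and 0.28 at 24, 48 and 72 h, and over all tested sites it was 0.02, -0.01 and 0.00.

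These directions hold only relative to the middle of all sites. When libraries were scaled instead by the background level recovered from the peak caller's own values, the median of all tested sites moved by -0.93, -1.42 and -1.50, and broad sites called lower and higher numbered 216 and 0 after 24 h, 301 and 22 after 48 h, and 295 and 11 after 72 h. Broad sites then had medians of -0.96, -1.28 and -1.22, and all sites had -0.91, -1.42 and -1.50. The recovered level itself changed little, from 0.598 in control to 0.646, 0.603 and 0.569, which is 108%, 101% and 95.2% of control. This scaling is therefore close to a comparison of raw counts, and every eribulin library had fewer consensus counts than both control libraries. Of the 75 called changes at the broad sites named here, 50 kept their call under this scaling, 18 fell short of it in the same direction and 7 turned direction.

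Calls followed 3 main courses, and no site was called in opposite directions at different times. Of the 162 sites called at any time, 43 were lower at 24 h only, 39 were higher at 48 and 72 h but not at 24 h, and 21 were higher at all 3 times. Another 19 were called higher at 72 h only, and 7 were lower throughout. The share of all tested sites in each course was not counted, so the courses are not read as particular to broad sites. Of all tested sites 13.5%, 7.55% and 8.55% were called lower at 24, 48 and 72 h, and 14.9%, 10.5% and 12.2% higher. The 57 sites lower at 24 h had median log2 fold changes of -1.27, -0.45 and -0.29 at 24, 48 and 72 h, and 56 of them were less negative at 72 h than at 24 h. The 66 sites higher at 48 h had medians of 0.76, 1.98 and 1.67, and 46 of them were lower at 72 h than at 48 h. Both sets were chosen on their values at 24 h or 48 h, so smaller changes at other times follow in part from that choice.

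The 2 broad sites that fell most at 24 h lay just past FOS and EGR1, both immediate early genes. Downstream of FOS, a subunit of AP-1, a site of 1102 bp began 1132 bp past the gene (chr14:75283362-75284463, hg38) and had control levels of 303 and 312 CPM and, under eribulin, 9.56 and 15.3 CPM after 24 h, 62.7 and 69.4 CPM after 48 h and 32.2 and 31.7 CPM after 72 h. All eribulin libraries lay far below both control libraries, lowest after 24 h, and the log2 fold changes were -4.63 (-5.08 to -4.22) after 24 h, -2.21 (-2.44 to -1.99) after 48 h and -3.26 (-3.62 to -2.93) after 72 h. The site just past EGR1, a zinc finger factor induced by growth signals, was 2043 bp wide (chr5:138469398-138471440) and had control levels of 609.7 and 590.1 CPM and, under eribulin, 79.5 and 81.2 CPM after 24 h, 152 and 165 CPM after 48 h and 174 and 177 CPM after 72 h. Its log2 fold changes were -2.90 (-3.07 to -2.74), -1.92 (-2.07 to -1.78) and -1.78 (-1.93 to -1.63), and the groups did not overlap. Control peaks covered 100% of the bases of both sites, and at 24 h no peak was listed in either.

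BHLHE40, a helix-loop-helix repressor that responds to hypoxia and stress, had a site 93 bp from its start (chr3:4978276-4979344) with control levels of 265 and 284 CPM and, under eribulin, 83.5 and 81.7 CPM after 24 h, 148 and 120.3 CPM after 48 h and 124 and 114 CPM after 72 h. Its log2 fold changes were -1.73 after 24 h, -1.03 after 48 h and -1.20 after 72 h, all called lower. Of 187 sites linked to the 24 AP-1 and immediate early genes, where a link is the nearest protein-coding or miRNA gene within 100 kb, 6 were broad, and 6, 4 and 3 of these were called lower at 24, 48 and 72 h. The other 3, named after their values were seen, were a site upstream of EGR1, the farther site of BHLHE40 and the site nearest FOSB, with -1.16, -1.07 and -1.68 at 24 h. Median log2 fold changes of the 6 were -1.70, -1.09 and -1.10 at the 3 times. Among all tested sites 13.5%, 7.55% and 8.55% were called lower at these times. Calls at the narrower sites linked to this list are not given here.

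At several other genes every eribulin library lay below both control libraries at each time. The site in the MIR23AHG transcript, which hosts the MIR23A, MIR27A and MIR24-2 microRNAs, lay 1260 bp from ZSWIM4 (chr19:13833514-13834802) and had control levels of 261 and 270.4 CPM and, under eribulin, 67.4 and 52.2 CPM after 24 h, 156 and 181 CPM after 48 h and 134 and 155 CPM after 72 h, a change of -2.15 (-2.35 to -1.95) at 24 h. Near DDIT4, an inhibitor of mTORC1 induced by stress, a site (chr10:72297201-72298297) changed by -1.26 after 24 h, -1.28 after 48 h and -1.14 after 72 h, close to level across the times. A site within SLC37A2, a sugar phosphate transporter gene, changed by -1.44 after 24 h, -1.06 after 48 h and -1.28 after 72 h. The promoter site of LENG9, printed above, had control levels of 236 and 225 CPM and, under eribulin, 93.6 and 98.0 CPM after 24 h, 102 and 84.9 CPM after 48 h and 133 and 129 CPM after 72 h, with called changes of -1.27 (-1.43 to -1.10) at 24 h and -1.30 (-1.50 to -1.11) at 48 h. A site within the noncoding LINC02099 changed by -2.11 (-2.55 to -1.70) at 24 h, -2.04 (-2.56 to -1.57) at 48 h and -2.14 (-2.73 to -1.62) at 72 h, and no eribulin peak was listed there. Within PRR36 a site fell by 1.99 at 24 h on the log2 scale, and a site 65 kb from JCAD, whose protein lies at endothelial junctions, by 1.28 at 48 h.

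In others the 24 h change was larger than the later ones. Just past VMP1, an autophagy protein of the endoplasmic reticulum, a 2365 bp site with MIR21, a microRNA raised in many tumours, within 2 kb (chr17:59842265-59844629) had control levels of 616 and 675 CPM and, under eribulin, 182 and 193 CPM after 24 h, 316 and 331 CPM after 48 h and 556 and 539.7 CPM after 72 h. It was called lower at 24 h, at -1.78 (-1.90 to -1.67), and its 72 h libraries lay nearer to, but still below, the control ones, at -0.23 (-0.32 to -0.14), or -1.74 under background scaling. The TMEM184A promoter site had control levels of 111 and 119 CPM and, under eribulin, 28.2 and 33.7 CPM after 24 h, 99.0 and 84.1 CPM after 48 h and 119 and 123 CPM after 72 h. Here the change was -1.89 (-2.19 to -1.62) at 24 h, and the 72 h libraries overlapped the control libraries, with 0.08 (-0.13 to 0.28), which background scaling turned to -1.43. Peaks covered 98.5% of this site in control, 16.1% at 24 h and 60.7% at 72 h.

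**Figure D1:**
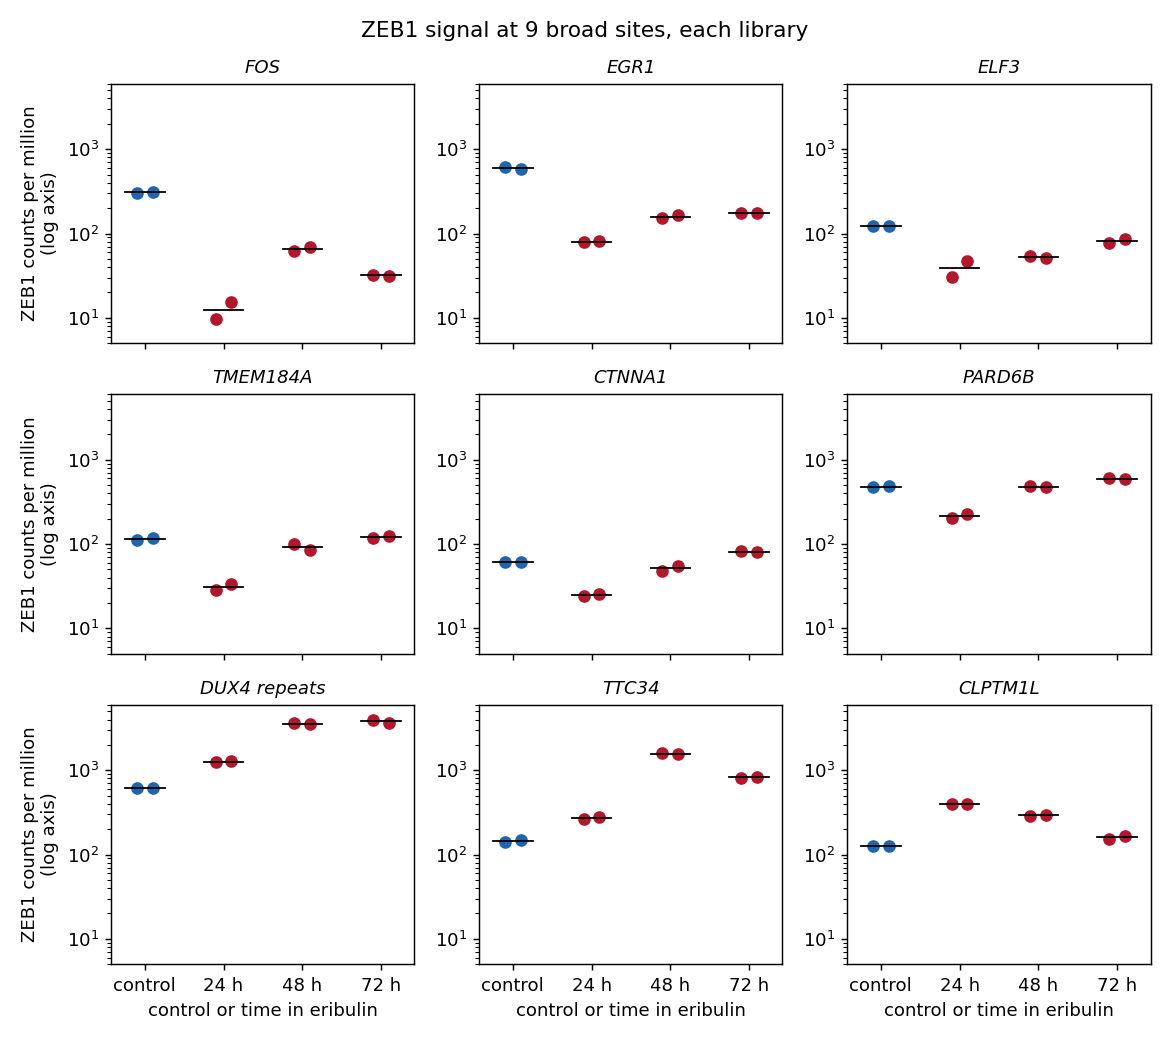
ZEB1 signal in CPM (log axis) at 9 broad sites named by a nearby gene, in control and after 24, 48 and 72 h of eribulin. Points are single libraries (control blue, eribulin red) and bars their mean; FOS and EGR1 stayed below control at every time, CTNNA1 and PARD6B were called lower at 24 h only (both stayed below control under background scaling), and the DUX4 and TTC34 sites were highest at 72 and 48 h.

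Sites at epithelial genes showed both courses. The promoter site of ELF3, an epithelial ETS factor (chr1:202009666-202010797), had control levels of 122 and 124 CPM and, under eribulin, 30.2 and 46.9 CPM after 24 h, 53.7 and 51.7 CPM after 48 h and 77.9 and 86.9 CPM after 72 h. Every eribulin library lay below both control libraries, and the log2 fold changes were -1.68 (-1.94 to -1.43) at 24 h, -1.22 (-1.49 to -0.96) at 48 h and, short of the 2-fold threshold, -0.58 (-0.82 to -0.35) at 72 h. It was the only broad site among 71 linked to the 15 epithelial transcription factor genes. An end of PARD6B, which encodes a subunit of the apical polarity complex, lay inside another site (chr20:50730664-50731843). This site was classed as gene body, since the nearest start among those used was that of BCAS4, 63 kb away. It had control levels of 469 and 490.4 CPM and, under eribulin, 203 and 225 CPM after 24 h, 492 and 469 CPM after 48 h and 603 and 590.4 CPM after 72 h. Both 24 h libraries were below and both 72 h libraries above the control libraries, with -1.16 (-1.27 to -1.05) at 24 h and 0.32 (0.23 to 0.41) at 72 h, the second short of 2-fold and, under background scaling, -1.19. The promoter of CTNNA1, which encodes alpha-catenin of adherens junctions (chr5:138752453-138753654), had control levels of 60.9 and 61.6 CPM and, under eribulin, 24.1 and 25.8 CPM after 24 h, 47.6 and 55.4 CPM after 48 h and 83.0 and 79.7 CPM after 72 h, with the same order of libraries and changes of -1.29 (-1.63 to -0.97) at 24 h and 0.41 (0.15 to 0.66) at 72 h, or -1.09 at 72 h under background scaling.

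Among 135 sites linked to the 30 epithelial junction and polarity genes 6 were broad. PARD6B and CTNNA1 were called lower at 24 h, PKP3 was called higher at 48 h, and none was called at 72 h. Upstream of JUP, which encodes plakoglobin, the changes were -0.94 after 24 h, -0.73 after 48 h and -0.13 after 72 h, none of them called. The sites at PKP3, DSP and LLGL2, named after their values were seen, had 1.96, 0.41 and -0.14 at 48 h. Medians of the 6 were -0.93, -0.07 and 0.37 at 24, 48 and 72 h, beside 0.02, -0.01 and 0.00 for all tested sites. Calls over all tested sites were 13.5% lower at 24 h and 10.5% higher at 48 h.

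Of 200 sites linked to the 34 mesenchymal and matrix genes 4 were broad, and 3 of these were called lower at 24 h and none at a later time. The share called lower among all tested sites was 13.5% at 24 h. Upstream of ITGA3, an integrin chain that binds laminin, a site had control levels of 300.0 and 296 CPM and, under eribulin, 154 and 122 CPM after 24 h, 231 and 267 CPM after 48 h and 302 and 349.5 CPM after 72 h, with changes of -1.11 at 24 h, which was called, and 0.13 at 72 h, or -1.38 under background scaling. Within COL1A1, a chain of type I collagen, the changes were -1.22 after 24 h, -0.45 after 48 h and -0.53 after 72 h, and only the first was called. At a site 27 kb from CD44, the hyaluronan receptor, they were -0.78 after 24 h, -0.36 after 48 h and -0.76 after 72 h, none called. The fourth, near COL6A1 and named after its values were seen, had -1.22 at 24 h. The EMT transcription factor list had 1 broad site, within RUNX1, with -0.40 after 24 h, -0.43 after 48 h and -0.34 after 72 h.

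The other lists held few broad sites, and none of them was called. CDKN1A, the p21 cell cycle inhibitor and a member of both the TGF-beta and the p53 lists, had -0.64 after 24 h, 0.01 after 48 h and 0.16 after 72 h at its promoter site. RRM2B, a p53-induced ribonucleotide reductase subunit, had -0.62 after 24 h, -0.33 after 48 h and -0.50 after 72 h, and HSP90AB1, a chaperone among the housekeeping genes, had -0.45 after 24 h, -0.33 after 48 h and -0.14 after 72 h. No broad site was linked to the lists of keratin, MAP kinase feedback, YAP and TEAD, tubulin, survival, interferon or silent lineage genes, so 7 of the 15 lists had none.

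Near chromosome ends a large part of the broad sites rose at 48 and 72 h. Of the 101 sites in this class 41 (40.6%) were called higher at 48 h and 36 (35.6%) at 72 h, against 24.4% and 24.1% of narrower sites in the class. Their median log2 fold changes were 0.28, 0.52 and 0.55 at 24, 48 and 72 h, turning to -0.65, -0.90 and -0.96 under background scaling, and those of the narrower sites 0.00, 0.18 and 0.23, or -0.93, -1.24 and -1.26. Within 5 Mb of an end lay 42 of the 66 broad sites higher at 48 h (63.6%), and with such sites left out of the series, a choice made after seeing the data, broad sites called higher numbered 24 at 48 h and 53 at 72 h. Some sites of this class were broad through eribulin peaks, so part of the rise follows from how the sites were chosen.

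The DUX4 site was named for its width and for being among the largest called rises at 72 h. It therefore does not show the usual size of these changes. Median log2 fold changes of broad sites near chromosome ends were 0.52 at 48 h and 0.55 at 72 h, with upper quartiles of 1.96 and 1.55. DUX4 is a germline transcription factor encoded in a repeat array at the end of chromosome 4, and the site was 2399 bp wide and 16.2 kb from the last annotated gene end (chr4:190177608-190180006). It had control levels of 623 and 615 CPM and, under eribulin, 1245 and 1284 CPM after 24 h, 3628 and 3509 CPM after 48 h and 3968 and 3684 CPM after 72 h. Every eribulin library lay above both control libraries, and the log2 fold changes were 1.03 (0.97 to 1.09), 2.53 (2.47 to 2.58) and 2.63 (2.58 to 2.68), or 0.10, 1.10 and 1.12 under background scaling. At the end of chromosome 10, a site 136 kb from FRG2B (chr10:133762874-133764106) had control levels of 57.5 and 55.5 CPM and, under eribulin, 118 and 104 CPM after 24 h, 380.1 and 381 CPM after 48 h and 394 and 352 CPM after 72 h, with changes of 0.98 after 24 h, 2.75 after 48 h and 2.72 after 72 h. That end carries a closely related repeat array, so reads of the pair may be shared and each value is uncertain.

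Sites near other chromosome ends had their larger changes at 48 and 72 h. Within TTC34 on chromosome 1 (chr1:2653627-2655811) a site had control levels of 141 and 148 CPM and, under eribulin, 266 and 279 CPM after 24 h, 1589 and 1543 CPM after 48 h and 818 and 842 CPM after 72 h, and its change of 3.44 (3.34 to 3.55) at 48 h was followed by 2.53 (2.41 to 2.64) at 72 h. Within CACNA1B, a neuronal calcium channel gene (chr9:138017889-138019570), a site had low control levels of 10.5 and 7.74 CPM and, under eribulin, 17.1 and 27.9 CPM after 24 h, 121 and 129 CPM after 48 h and 47.4 and 66.1 CPM after 72 h. No peak was listed there in control or at 24 h, and peaks covered 95.6% of it at 48 h and 48.2% at 72 h. The sites within CEP72 and 631 kb from FRG1 changed at 48 h by 3.44 (3.08 to 3.83) and 3.60 (3.28 to 3.95). A site within TRIP13, a checkpoint ATPase gene, changed by 0.57 after 24 h, 2.74 after 48 h and 2.77 after 72 h. A 2426 bp site within DLGAP2, near the end of chromosome 8, changed by 0.83, 2.80 and 1.31, or by -0.10, 1.37 and -0.20 under background scaling. The CACNA1B, CEP72, FRG1 and TRIP13 sites held only 61, 75, 93 and 40 control counts. Control peaks covered 0%, 0%, 18.5% and 11.3% of their bases, and 49.6% of the DLGAP2 site. At 48 h peaks covered 95.6%, 96.6%, 98.2% and 80.1%, and 87.5% at DLGAP2. These sites were broad in part or in full through eribulin peaks, so their rises follow in part from how they were chosen.

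Away from chromosome ends, 2 named sites were also highest at 48 h. One 26 kb from TRIM29 (chr11:120084571-120085632) had control levels of 9.63 and 8.71 CPM and, under eribulin, 17.6 and 19.5 CPM after 24 h, 115 and 117 CPM after 48 h and 54.2 and 62.5 CPM after 72 h, and changed by 3.64 (3.25 to 4.07) at 48 h. One in ATP10A, a lipid flippase gene, changed by 0.80 after 24 h, 3.50 after 48 h and 2.69 after 72 h. In both, the 48 h libraries were highest and both 72 h libraries stayed above both control libraries. They held only 61 and 40 control counts, and control peaks covered 0% and 42.5% of their bases, against 100% of both at 48 h. Their rises therefore also follow in part from how the sites were chosen.

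The largest rises at 24 h were at other sites, some of them also near chromosome ends. Within CLPTM1L, at the end of chromosome 5 (chr5:1327045-1328496), a site had control levels of 127 and 127 CPM and, under eribulin, 398 and 393 CPM after 24 h, 288 and 296 CPM after 48 h and 153 and 168 CPM after 72 h, with 1.64 (1.52 to 1.76) at 24 h and, no longer called, 0.33 (0.15 to 0.51) at 72 h. Its 24 h libraries were the highest, unlike those of TTC34 and CACNA1B. The sites nearest SCGB1C2 and CTDP1, both near chromosome ends, changed by 1.69 (1.22 to 2.18) and 1.65 (1.22 to 2.09) at 24 h. At that time a site within ACTN2, a muscle actinin gene, changed by 1.57 (1.10 to 2.08). An intergenic site whose nearest coding start is that of TENM3 changed by 1.57 (1.28 to 1.88). All 4 were called higher at each of the 3 times. The SCGB1C2, CTDP1, ACTN2 and TENM3 sites held only 58, 70, 57 and 151 control counts. Control peaks covered 60.3%, 49.7%, 19.0% and 77.8% of their bases, and 24 h peaks 100%, 75.2%, 100% and 94.97%. Their width drew in part on eribulin peaks, so these rises also follow in part from how the sites were chosen. None of the 6 sites with the largest rise at 24 h, the site over TRI-TAT2-1 described below included, kept its call under background scaling, with log2 fold changes of 0.64 to 0.76. A 2445 bp site at chr4:49091296-49093740, near the centromere and 29 kb from CWH43, had control levels of 181 and 181 CPM and, under eribulin, 479.9 and 483 CPM after 24 h, 333 and 338 CPM after 48 h and 433 and 392 CPM after 72 h. Background scaling gave changes of 0.48, -0.53 and -0.31 at this site.

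**Figure D2:**
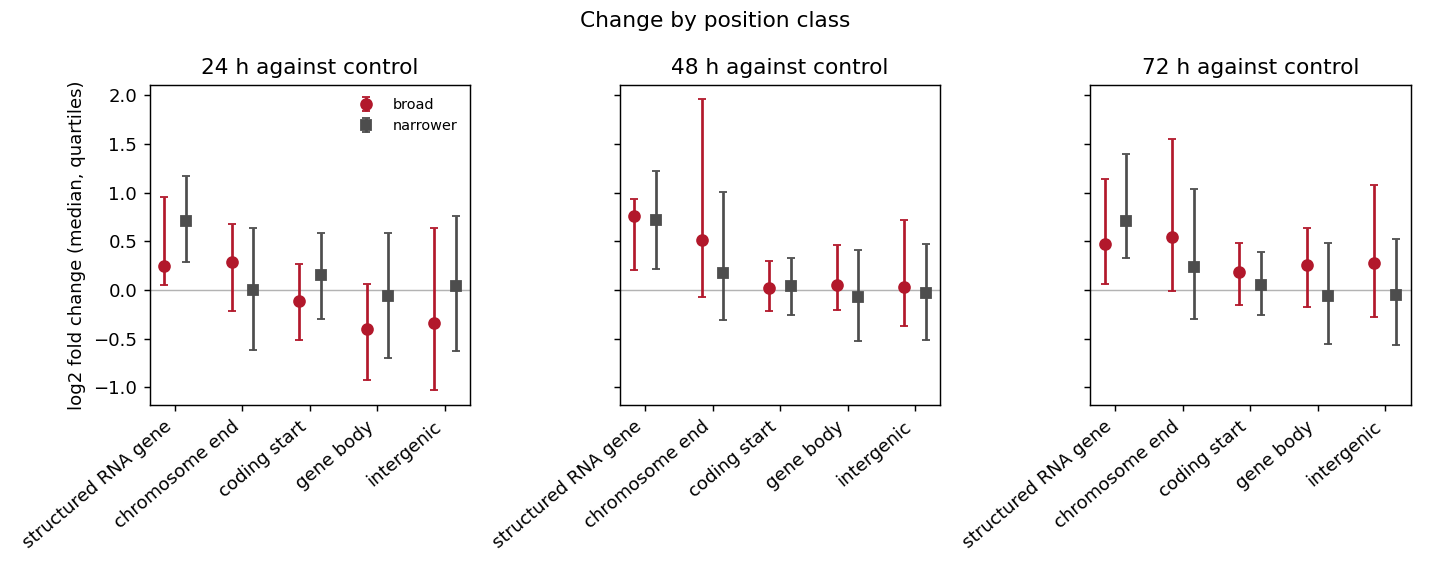
Median log2 fold change with quartiles (bars) of broad (red circles) and narrower (grey squares) sites by position class, at 24, 48 and 72 h against control. Broad sites near chromosome ends had medians of 0.28, 0.52 and 0.55, and broad sites at coding starts -0.11, 0.02 and 0.18.

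Broad sites over structured RNA genes carried the highest counts. The 50 had median log2 fold changes of 0.25, 0.76 and 0.47 at 24, 48 and 72 h, and 20%, 16% and 40% were called higher. The 177 narrower sites of this class had 0.71, 0.71 and 0.71, and 32.8%, 31.6% and 39.5% were called higher. A rise over such genes was therefore not particular to broad sites. In the ribosomal DNA block of chromosome 21, which holds copies of the precursor of the 18S and 28S ribosomal RNAs, 13 broad sites held 6880 to 12404 control counts each, and they included the 8 sites with most control counts per kb and 4 of the 8 widest. The widest, 81 bp from MIR6724-4 (chr21:8432702-8435948), had control levels of 1327 and 1363 CPM and, under eribulin, 1551 and 1623 CPM after 24 h, 2655 and 2454 CPM after 48 h and 1387 and 1337 CPM after 72 h. Its 24 and 48 h libraries lay above both control libraries, with 0.24 (0.19 to 0.29) and 0.93 (0.88 to 0.97), and the 72 h libraries overlapped them. The 5 sites over 28S copies had median log2 fold changes of 0.13, 0.90 and 0.03 at 24, 48 and 72 h, the 5 over neither 18S nor 28S had 0.16, 0.93 and 0.04, and the 3 over 18S had 0.08, 0.39 and -0.42. None of the 13 passed 2-fold at any time, and under background scaling the 3 medians were -0.80, -0.77 and -0.86 after 24 h, -0.53, -0.49 and -1.04 after 48 h and -1.47, -1.47 and -1.92 after 72 h. Copies of this unit are nearly identical and occur on several chromosomes, so how reads were assigned among them is uncertain and the 13 are not independent.

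Spliceosomal U1 genes, which encode the RNA that recognises 5′ splice sites, had 4 broad sites of 1527 to 1756 bp. Their CPM lay between 352 and 389 in control, between 730 and 837 after 24 h, between 582 and 707 after 48 h and between 802 and 905 after 72 h, so all eribulin values were above control. Median log2 fold changes were 1.04, 0.73 and 1.16, against 0.10, -0.70 and -0.34 under background scaling, and 3, 0 and 4 of the 4 were called higher. The 3 sites over U3 genes, whose RNA guides early cleavage of the ribosomal RNA precursor, had 0.74, 0.77 and 1.15, which background scaling turned to -0.19, -0.66 and -0.35, and all were called higher at 72 h. For the 8 sites over variant U1 genes the medians were 0.48, 0.50 and 0.87, or -0.46, -0.92 and -0.63 under background scaling, with 4, 2 and 4 called higher. These families too have near-identical copies that can share reads. For comparison, 14.9%, 10.5% and 12.2% of all tested sites were called higher at 24, 48 and 72 h.

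Over tRNA genes lay 9 broad sites, with median log2 fold changes of 0.76, 1.19 and 1.45, or -0.17, -0.23 and -0.05 under background scaling, and with 3, 6 and 5 called higher at 24, 48 and 72 h. All tested sites were called higher in 14.9%, 10.5% and 12.2% of cases at these times. A site over TRI-TAT2-1, an isoleucine tRNA gene 17 kb from HAAO (chr2:42809915-42810954), had control levels of 16.7 and 15.8 CPM and, under eribulin, 53.3 and 50.6 CPM after 24 h, 42.3 and 53.9 CPM after 48 h and 40.6 and 48.9 CPM after 72 h, all eribulin libraries being above both control libraries. Its changes were 1.67 after 24 h, 1.56 after 48 h and 1.45 after 72 h. This site held only 108 control counts, and peaks covered 68.8% of it in control and 90.8% at 24 h. The site over TRU-TCA1-1 near FOSB was called lower at 24 and 48 h, with -1.68 and -1.15. Single sites over RNU4-2 and SNORD13 changed by 1.10 and 1.14 at 72 h.

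Broad sites at coding starts had the smallest share of calls of any class at each time. Of the 164, 16 were called lower and 4 higher after 24 h, 2 and 2 after 48 h, and 2 and 7 after 72 h. These are 9.76% lower and 2.44% higher after 24 h, 1.22% and 1.22% after 48 h, and 1.22% and 4.27% after 72 h. Narrower sites at coding starts were also called seldom, with 4.95% lower and 9.04% higher after 24 h, 1.32% and 2.76% after 48 h, and 1.56% and 4.30% after 72 h. Of the 67 sites in gene bodies, 13 (19.4%) were called lower and 3 (4.48%) higher after 24 h. By 72 h 1 (1.49%) was lower and 10 (14.9%) higher. Narrower gene body sites had 15.4% lower and 13.8% higher after 24 h, then 9.95% and 10.7% after 72 h. Among the 58 intergenic sites, 15 (25.9%) were lower and 11 (19.0%) higher after 24 h. By 72 h 3 (5.17%) were lower and 16 (27.6%) higher. Several of those called higher lay in 1 stretch near the centromere of chromosome 4, from 49091296 to 49150049, all linked to CWH43. They changed by 1.28 to 1.41 after 24 h and by 1.04 to 1.20 after 72 h and were called higher at both times. Such neighbours may not be independent, and whether they share reads was not tested. Narrower intergenic sites had 14.5% lower and 18.5% higher after 24 h, then 10.7% and 12.1% after 72 h. Quartiles of the broad sites at 72 h were -0.15 and 0.49 for coding starts, -0.18 and 0.63 for gene bodies and -0.27 and 1.08 for intergenic sites.

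Set beside narrower sites with the same control count, broad sites had higher fold changes at each time. Narrower sites were grouped in steps of 0.25 log2 units of control count, and 425 broad sites had at least 20 narrower sites in their step. For these the median log2 fold change was -0.04, 0.12 and 0.30 at 24, 48 and 72 h, and that of narrower sites at equal counts -0.54, -0.32 and -0.30. Taken site by site the median difference was 0.46, 0.42 and 0.58, with 337, 355 and 360 of the 425 broad sites above their narrower counterparts. Equal counts in a wider interval mean fewer counts per kb, and when sites were matched on control counts per kb instead, the differences were -0.10, 0.17 and 0.29, so that the direction at 24 h turned round. Matched on the mean over the 4 conditions they were 0.22, 0.19 and 0.34. A change of scaling moves both kinds of site alike and leaves these differences as they are. Width draws on peaks of all 4 conditions, so a site can be broad through its eribulin peaks, and a rise there follows in part from how the sites were chosen. Over broad sites with a single control peak of 1000 bp or more, 292 in all, the differences were 0.26, 0.29 and 0.43, and without the 61 that had such a peak under eribulin and not in control they were 0.37, 0.35 and 0.54, both choices made after seeing the data. With 1 sample a condition there is no test of these differences, and sites are not replicates.

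The difference was present in each position class that could be matched with narrower sites of the same class. Near chromosome ends it was 0.58, 0.77 and 0.81 over 90 sites, in gene bodies 0.44, 0.45 and 0.60 over 61, among intergenic sites 0.61, 0.49 and 0.66 over 45, and at coding starts 0.13, 0.20 and 0.33 over 157. No site over structured RNA genes could be matched in this way. Of the 26 broad sites with fewer than 128 control counts, 17 had a single peak of 1000 bp or more under eribulin and not in control, so nothing is read from their changes. The 117 broad sites with 512 to 1023 control counts had -0.43, -0.09 and 0.04, and 1231 narrower sites -0.68, -0.33 and -0.33.

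**Figure D3:**
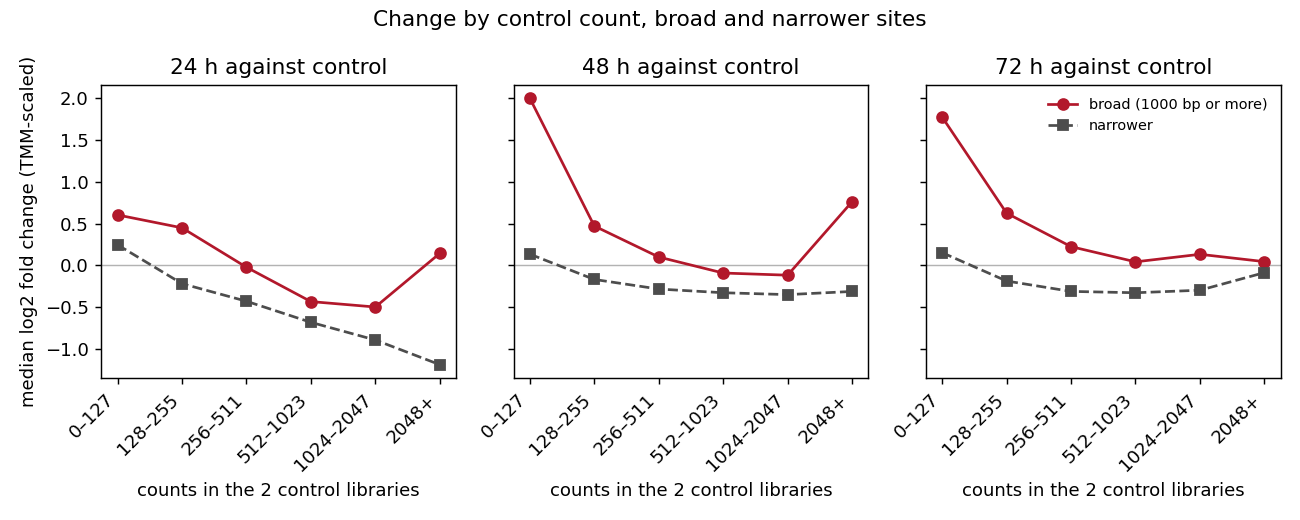
Median log2 fold change of broad (red circles) and narrower (grey squares) sites by the counts they held in the 2 control libraries together, in 6 ranges, at 24, 48 and 72 h against control. The broad median lies above the narrower one in each range, as with -0.43 and -0.68 for 512 to 1023 counts at 24 h; in the lowest range most broad sites were wide through eribulin peaks, so their rise follows from the choice of sites.

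The share of all consensus counts that lay in broad sites needs no scaling between libraries. Control libraries had 6.06% and 6.23% there, and eribulin libraries 6.67% and 6.74% after 24 h, 9.08% and 8.92% after 48 h, and 8.12% and 7.97% after 72 h. All eribulin libraries lay above both control libraries, with the highest at 48 h. Broad sites near chromosome ends held 0.745% of counts in control and 0.954%, 1.99% and 1.75% at 24, 48 and 72 h, and those in the ribosomal DNA block 1.74%, 2.04%, 2.97% and 1.62%. Broad sites at coding starts kept to 1.22%, 1.13%, 1.18% and 1.29%. Without structured RNA and ribosomal DNA sites, the shares were 3.86% in control and 3.79%, 5.33% and 5.41% at the 3 times, so that the 24 h share was then just below that of control.

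Counts of replicate 1 were divided by the background recovered from each condition's peak list, which the labels name for both replicates. So scaled, counts in broad sites were 54.0%, 56.2% and 47.7% of control at 24, 48 and 72 h. Those in narrower sites were 48.7%, 36.3% and 34.9%. Broad sites near chromosome ends stood at 63.4%, 102% and 85.6% of control on this scale, and broad sites outside them and outside structured RNA genes at 44.0%, 38.8% and 41.5%.

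**Figure D4:**
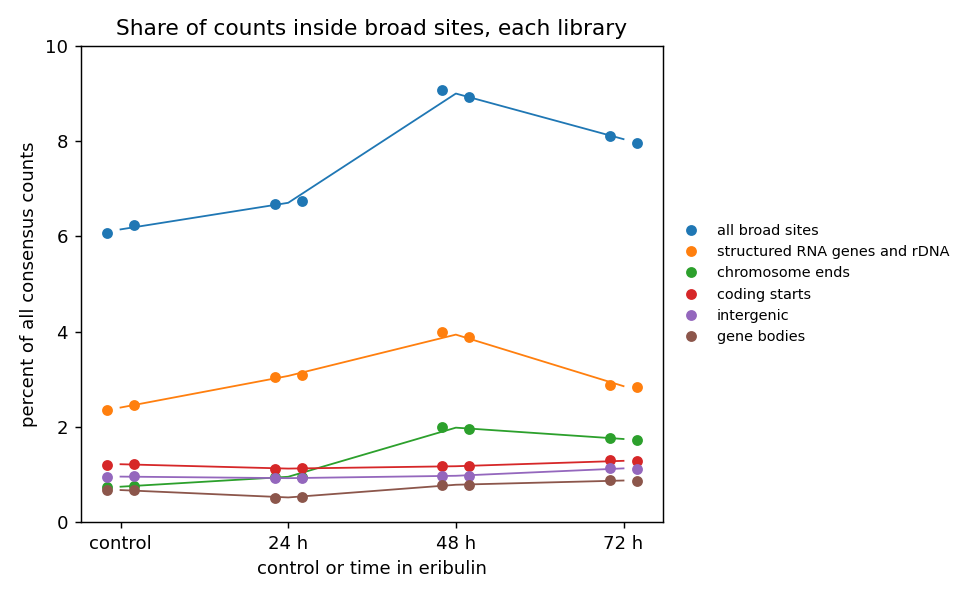
Percent of all consensus counts inside broad sites, in control and after 24, 48 and 72 h of eribulin, for all 455 and by position class. Points are libraries and lines join the means of each condition; the share of all broad sites runs from 6.06% in a control library to 9.08% in a 48 h library.

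Most broad sites still held a peak at every eribulin time, over a smaller part of their length. A peak overlapped 98.9% of broad sites in control, 96.0% after 24 h, 94.9% after 48 h and 91.9% after 72 h, and narrower sites at equal control counts held one in 99.7%, 92.7%, 88.0% and 84.5%. Of the 455, 395 (86.8%) held a peak in all 4 conditions, against 24.1% of all sites. Peaks covered a median of 97.0% of the bases of a broad site in control, 66.0% after 24 h, 51.4% after 48 h and 50.1% after 72 h. Over the 425 matched sites the mean covered share was 88.0%, 60.1%, 50.9% and 48.2%, and at narrower sites of equal count 96.9%, 68.2%, 57.1% and 54.2%. Control peaks came as 2 or more separate entries in 74 sites, and peaks at 24, 48 and 72 h did so in 144, 147 and 179. Fewer counts in the eribulin libraries make peaks harder to call, and the part this plays was not tested. No listed control peak lay in 5 broad sites, and 2 had a peak in control only.

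**Figure D5:**
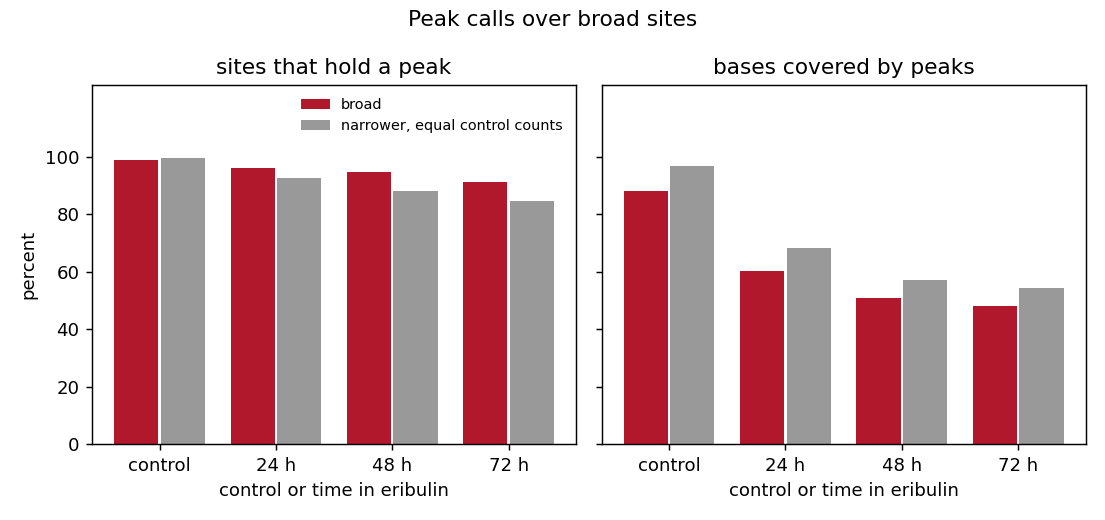
Percent of the 425 matched broad sites (red) and of narrower sites with equal control counts (grey) that hold a peak (left), and percent of their bases covered by peaks (right), in control and after 24, 48 and 72 h of eribulin. Broad sites hold a peak in 91.3% of cases at 72 h, against 84.5%, and peaks then cover 48.2% of their bases, against 54.2%.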

How the data were processed

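The members and gene lists were chosen with earlier results of these data known. Tools named in the submitters' processing notes, with no role or order, are Bowtie2 2.2.6, MACS2 2.1.1, featureCounts, bedtools 2.30.0, cutadapt 2.4, Picard, deepTools and bcl2fastq 2.20.0.422, and the build is hg38. The labels describe CUT&RUN and also Tn5 fragmentation. The deposited table holds raw counts per consensus interval for 8 libraries, of reads or of fragments (not stated). The deposited peak lists, 1 per condition, give a fold enrichment (ratio), −log10 p and −log10 q values, and a score derived from q.

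Sites of 1000 bp or more were taken from the consensus intervals. All sites were fitted together in edgeR 4.0.16 (R 4.3.3; TMM, filterByExpr, robust quasi-likelihood, 2-sided, Benjamini-Hochberg over 46436 tested sites). The common dispersion was 9.77e-05, the level of counting noise. The labels do not say whether libraries came from separate cultures, so p-values measure only the spread between these libraries. The fit was tested on simulated data. Share and fold intervals are exact, at 95%. The background level was recovered from each deposited peak's fold and p. Genes, promoters and structured RNAs came from RefSeq tables (GRCh38.p14). Sites were named as the 8 widest, the 8 with most control counts per kb, the 6 called sites with the largest change in each direction per time, up to 3 linked sites per list, and 3 on either side of the width threshold.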

Additional observations from a re-analysis of the deposited data

Results flagged for a closer look

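At 5 of the sites named in the report both 24 h libraries and both 72 h libraries lay on opposite sides of both control libraries. The difference between the times was not tested. The PARD6B site had log2 fold changes of -1.16 at 24 h and 0.32 at 72 h, the CTNNA1 site -1.29 and 0.41, and the ITGA3 site -1.11 and 0.13. Over the ribosomal DNA block the order was reversed: a site over an 18S copy nearest MIR6724-3 had 0.078 at 24 h and -0.41 at 72 h, and one nearest MIR3648-1 had 0.090 and -0.42. All 5 fell short of 2-fold at 72 h. Under background scaling none of the 5 changed direction between the times, with -2.10 at 24 h and -1.19 at 72 h for PARD6B, -2.23 and -1.09 for CTNNA1, -2.04 and -1.38 for ITGA3, -0.86 and -1.91 for the site nearest MIR6724-3 and -0.84 and -1.92 for that nearest MIR3648-1.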

How the results depend on the processing

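With the background scaling, broad sites called lower and higher numbered 216 and 0, 301 and 22, 295 and 11 at 24, 48 and 72 h, since this scaling lowers all eribulin libraries. A 1.5-fold threshold gave 105 and 90, 32 and 124, 26 and 143, a width of 800 bp or more 166 and 98, 42 and 124, 33 and 174 and of 1500 bp or more 11 and 11, 3 and 18, 2 and 26. Without sites near chromosome ends, an alternative chosen after seeing the data, the calls were 48 and 28, 12 and 24, 7 and 53. DESeq2 size factors in edgeR, library totals, no low count filter, DESeq2's Wald test and leaving out structured RNA sites kept each count within 1.5 times, but library totals gave 46 lower and 53 higher at 24 h and so turned the order of the 2 counts, and sites of 1500 bp or more had equal counts. Leaving out 1 library at a time gave 56 to 61 lower and 37 to 40 higher at 24 h, 11 to 16 lower and 66 to 69 higher at 48 h, 8 to 9 lower and 87 to 90 higher at 72 h. Of the 75 called changes at named sites, background scaling kept 50, left 18 short of the call and turned 7, DESeq2 size factors left 1 short, and library totals, no filter, DESeq2's test and the block kept all.

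The difference between broad and narrower sites at equal control counts, at 24, 48 and 72 h, was 0.44, 0.39, 0.57 when matched on 1 control library and compared with the other, -0.10, 0.17, 0.29 per kb, 0.22, 0.19, 0.34 by mean count, 0.57, 0.52, 0.69 against sites under 500 bp and 0.50, 1.20, 1.20 for sites of 1500 bp or more. Within the same position class it was 0.34, 0.37, 0.49, without structured RNA sites 0.43, 0.38, 0.56 and without chromosome ends 0.42, 0.37, 0.56. It ranged over 0.45 to 0.47, 0.39 to 0.43, 0.56 to 0.60 without each library. Over sites with a single control peak of 1000 bp or more it was 0.26, 0.29, 0.43, and without those wide by such a peak under eribulin only 0.37, 0.35, 0.54, both chosen after seeing the data. Among these alternatives only matching per kb at 24 h reversed it, and its cause was not tested.

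The percent share of counts in control and at 24, 48 and 72 h was 12.3, 12.2, 15.1, 14.5 for 800 bp or more, 2.67, 3.24, 4.89, 3.73 for 1500 bp or more, 3.86, 3.79, 5.33, 5.41 without structured RNA sites and 6.08, 6.46, 8.21, 7.29 without chromosome ends. Leaving out 1 library gave 6.06 to 6.23, 6.67 to 6.74, 8.92 to 9.08, 7.97 to 8.12.

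With only peaks of −log10 q of 5 or more, 93.2%, 88.1%, 83.5% of broad sites held one at 24, 48 and 72 h, and 90.7%, 83.7%, 78.8% of narrower sites at equal counts. With an overlap of 200 bp or more the shares were 93.4%, 86.8%, 85.5% and 81.2%, 72.0%, 67.8%.

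Same-numbered libraries of different conditions did not deviate together (correlations from -0.015 to 0.012), so the numbers do not pair them. A replicate block gave 57 and 41, 14 and 66, 8 and 90 calls, as without it, and differences of 0.46, 0.41, 0.58. With 1 sample a condition, depth limits only the counting error.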
